A study of Mus musculus with 6 samples.

Results

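The genes described here are 9 members of the cytokine signalling pathway that runs through JAK kinases and STAT transcription factors: Stat3, Stat4, Stat5a, Stat5b, Stat6, Socs2, Socs3, Cish and Pim1. They were chosen by symbol, and each was read from its probe set with exactly 1 symbol in the platform annotation, taking the brightest over the 6 arrays where a gene had several. All 9 were measured, of 19938 genes in all. The sorted cells were CD8+ T lymphocytes gated for low surface CD44, taken from suspensions of lymph node and spleen cells of mice aged 10 weeks, on the C57BL/6 background. The 3 sanroque mice (Roquinsan/san) were homozygous for the sanroque allele of Roquin, an RNA-binding protein that represses target mRNAs, and the 3 wild-type mice were Roquin+/+. Each array held the RNA of 1 labelled biological replicate. The allele is germline, so every cell of a sanroque mouse carries it.

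When a cytokine binds its receptor, JAK kinases bound to the receptor chains phosphorylate STAT proteins, which pair, enter the nucleus and activate genes. In CD8+ T cells STAT5A and STAT5B act downstream of interleukins 2, 7 and 15, STAT3 downstream of interleukins 6 and 10, STAT4 downstream of interleukin 12 and STAT6 downstream of interleukin 4. Cish, Socs2 and Socs3 are induced by STATs and encode proteins that dampen the same receptors, and Pim1, also induced by STATs, encodes a serine/threonine kinase that favours survival and growth.

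All values are log2 intensities. Median intensity per array lay between 54.9 and 56.9 in sanroque and between 53.6 and 56.0 in wild type on the linear scale, and the number of arrays limits the precision. The CD8 T cell markers Cd8a and Cd3g, which encode a coreceptor chain and a chain of the T cell receptor complex, were bright in both genotypes, with means of 13.00 and 12.92 in sanroque and 13.02 and 13.06 in wild type. The summed linear intensity of 8 CD8 T cell genes was nonetheless lower in sanroque, at 35543 to 37641, against 38914 to 40736 in wild type. All 8 had a lower mean in sanroque, and Cd3d, another chain of the T cell receptor complex, fell by 0.52 on the log2 scale (limma, Benjamini-Hochberg adjusted p = 0.0263). The summed intensity of each list of markers of other cells was higher on all 3 sanroque arrays than on any wild-type array, though not every gene was. The summed linear intensity of 12 B cell genes was 8447 to 10427 in sanroque and 2215 to 5580 in wild type, and 7 of the 12 rose. That of 14 myeloid genes was 7904 to 12634 in sanroque and 919 to 1614 in wild type, and 12 of the 14 rose. That of 5 plasma cell genes was 1648 to 2275 in sanroque and 519 to 825 in wild type, with 4 higher. That of 6 CD4 T cell genes was 723 to 1082 in sanroque and 393 to 439 in wild type, with 3 higher (Zbtb7b, Ikzf2 and Ctla4). Cd4, Foxp3 and Cd40lg did not pass. That of 5 NK cell genes was 243 to 296 in sanroque and 196 to 209 in wild type, with 2 higher, and that of 7 dendritic cell genes 1888 to 2073 in sanroque and 1344 to 1546 in wild type, with 1 higher. Defining genes of some of these cells were near the low end of the scale in both genotypes. Ncr1 of NK cells averaged 4.35 in sanroque and 4.48 in wild type, and Clec9a of dendritic cells 3.94 in sanroque and 3.83 in wild type. Other genes of these 2 lists rose. They were Klre1 and Fcgr3 of the NK cell list, by 0.83 and 0.89 on the log2 scale, and Itgax of the dendritic cell list, by 1.96. Means were higher in sanroque in 3 of the 5 NK cell genes and 5 of the 7 dendritic cell genes. Those with lower means were Ncr1 and Adgrg3 of the NK cell list (log2 folds -0.12 and -0.09). In the dendritic cell list they were Zbtb46 and Siglech (-0.12 and -0.03). The sum of 7 cell cycle genes was 856 to 942 in sanroque and 232 to 265 in wild type, with 5 higher. The part of these cells in the results that follow was not tested except where stated, and in sorted bulk samples more cells of a type cannot be told apart from more RNA per cell.

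Of the 9 genes, Stat3 alone rose in sanroque cells, to 1.57-fold of wild type. Socs3, Cish and Pim1 had log2 folds of 0.54, 0.53 and 0.62, and each was higher on every sanroque array than on any wild-type array, but they did not pass the test. Stat5a and Stat5b had smaller differences of 0.20 and 0.22, also without overlap, while Stat4, Stat6 and Socs2 overlapped between the genotypes. The test was limma's, two-sided, and a gene passed where the p adjusted over all 19938 genes by Benjamini-Hochberg was below 0.05. At this threshold 5.77% of all genes were called, 3.26% higher and 2.51% lower in sanroque. The count of 1 of 9 is too small to be read against these shares. The 3 values of each genotype did not overlap in 6 of the 9 genes, all with sanroque above. Over all genes this share was 22.7% in either direction, 9.46% with sanroque above and 13.2% with sanroque below. In either direction it was larger among bright genes, at 2104 of the 5583 genes with a mean log2 of at least 8, where most of the 9 lie. The share of bright genes with sanroque above was not counted separately. Of these 5583 genes, 195 were called higher and 356 lower. The median log2 fold of the 9 genes was 0.22 and that of all genes was -0.03. Group means were higher in sanroque in 9 of 9 genes here and in 7673 of all 19938.

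**Figure D1:**
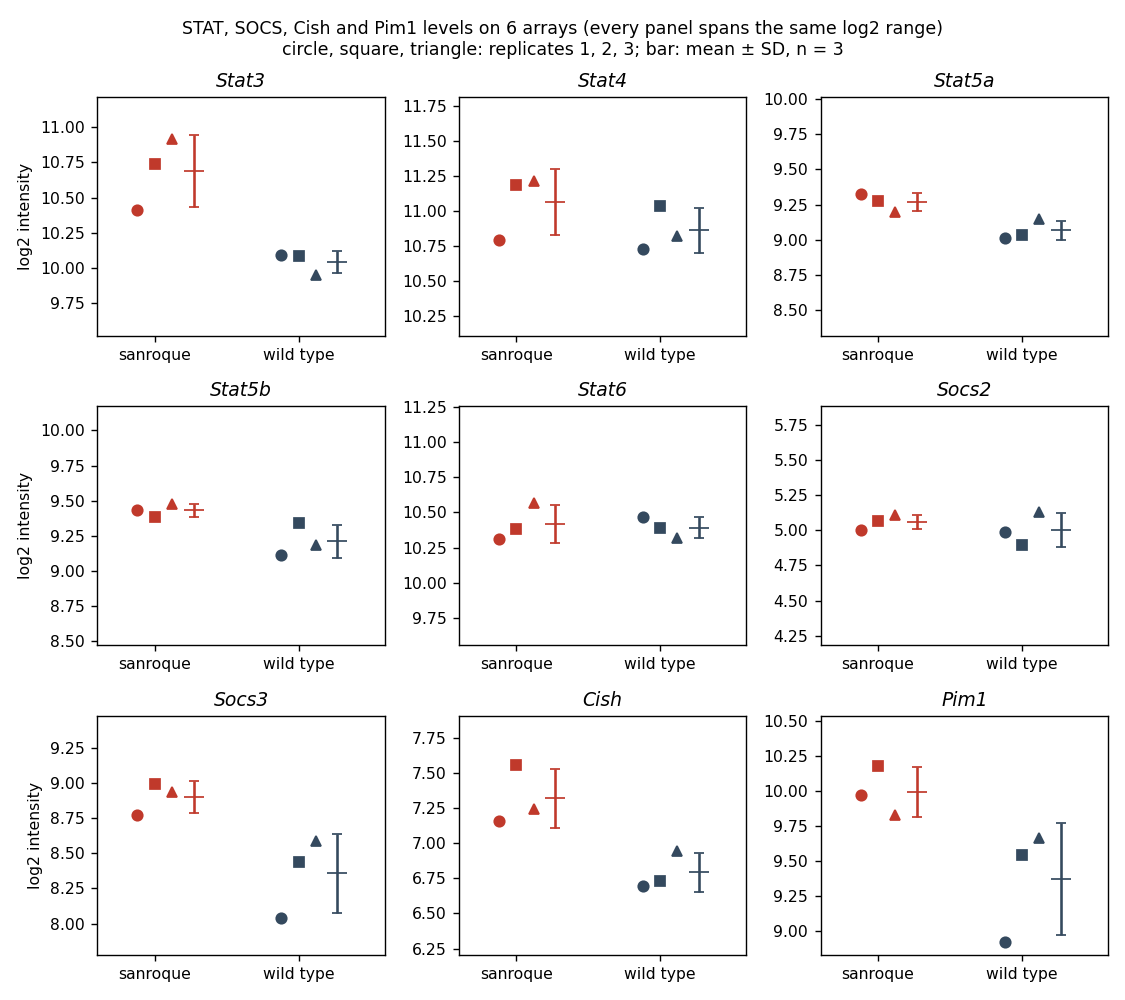
Log2 intensity (vertical axis) of each of the 9 genes on the 3 sanroque arrays (left, red) and the 3 wild-type arrays (right, dark blue), with a bar for the mean ± SD (n = 3 each). Stat3, Stat5a, Stat5b, Socs3, Cish and Pim1 show no overlap between the genotypes, and Stat4, Stat6 and Socs2 do.

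Among the STAT genes, Stat3 encodes the factor best known for carrying signals of interleukin 6 family cytokines and of interleukin 10. Stat3 read 10.41, 10.74 and 10.92 on sanroque arrays 1 to 3, against 10.09, 10.08 and 9.95 on wild-type arrays 1 to 3. The lowest sanroque array lay 0.32 above the highest wild-type array, and the sanroque arrays spread more widely. The means were 10.69 ± 0.25 in sanroque and 10.04 ± 0.08 in wild type (SD, n = 3 each). The log2 fold was 0.65 ± 0.13 (standard error of limma's fit; 95% interval 0.35 to 0.95; limma, Benjamini-Hochberg adjusted p = 0.0345). Among the sanroque arrays Stat3 was lowest on array 1, where the sum of myeloid genes was highest (12634), and highest on array 3, where that sum was lowest (7904). The median of the myeloid list did not follow the order of the sum, at 8.69, 8.36 and 8.69 on sanroque arrays 1 to 3. The B cell and plasma cell sums were highest on sanroque array 3 (10427 and 2275), and the plasma cell sum, like Stat3, was lowest on array 1 (1648). In wild type, array 2 had the highest B cell and myeloid sums (5580 and 1614) and its Stat3 level was 0.01 below that of array 1. Without sanroque array 1 the log2 fold was 0.79 (adjusted p = 0.0138, limma). The call did not hold without sanroque array 2 (adjusted p = 0.119) or without wild-type array 1 (0.127), 2 (0.0945) or 3 (0.0841) in limma, while the log2 fold stayed between 0.54 and 0.79 whichever array was left out. It also did not hold with a score of B cell and myeloid genes as a covariate (log2 fold 0.46 ± 0.49, limma, adjusted p = 0.697). In that fit 0 of 19938 genes were called and 2612 had an unadjusted p below 0.05. Over all alternatives the adjusted p of Stat3 ran from 0.00301 to 0.697 (limma).

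Stat5a and Stat5b encode the near-identical pair of factors that respond to interleukins 2, 7 and 15. Stat5a read 9.33, 9.27 and 9.20 in sanroque, against 9.01, 9.04 and 9.15 in wild type. Stat5b read 9.43, 9.39 and 9.47 in sanroque, against 9.11, 9.34 and 9.18 in wild type. Both were higher in sanroque with no overlap, and the gap between the nearest arrays was 0.05 in each. The log2 folds were 0.20 ± 0.07 (95% interval 0.03 to 0.37, limma, Benjamini-Hochberg adjusted p = 0.173) and 0.22 ± 0.08 (0.03 to 0.41, adjusted p = 0.180). With the score of B cell and myeloid genes as a covariate Stat5b was -0.23 ± 0.23 (limma, adjusted p = 0.685), Stat4 -0.22 ± 0.49 and Stat6 -0.11 ± 0.33. Each fold was smaller in size than its standard error, so this fit does not settle the signs. The B cell and myeloid medians were higher on every sanroque array than on any wild-type array, so the score and genotype are hard to part. The sources used here do not say how far the probes of this pair tell their transcripts apart, so the values may share signal. In the gene order of GRCm38.p6, Stat5b, Stat5a and Stat3 are consecutive protein-coding genes on chromosome 11.

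Stat4, the factor of interleukin 12 signalling, read 10.79, 11.19 and 11.21 in sanroque, against 10.73, 11.04 and 10.82 in wild type. Sanroque arrays 2 and 3 were above every wild-type array, and sanroque array 1 was below wild-type arrays 2 and 3. Its log2 fold was 0.20 ± 0.14 (95% interval -0.12 to 0.52, limma, Benjamini-Hochberg adjusted p = 0.547). Stat6, the factor of interleukin 4 signalling, read 10.31, 10.38 and 10.57 in sanroque, against 10.46, 10.39 and 10.32 in wild type, with overlap throughout. Its log2 fold was 0.03 ± 0.09, and the 95% interval of -0.18 to 0.24 bounds the size of a difference that these arrays could have missed (limma, Benjamini-Hochberg adjusted p = 0.936).

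Whether Stat3 moved more than the other STAT genes was tested on the difference between genes within each array, as part of 7 gene pairs. The difference in log2 fold between Stat3 and Stat6 was 0.62. On the sanroque arrays the Stat3 minus Stat6 difference exceeded its wild-type mean by 0.45, 0.71 and 0.70, against -0.02, 0.04 and -0.02 on the wild-type arrays. For Stat4 and Stat5a the differences from Stat3 were 0.45 each, without overlap, and for Stat5b 0.43 with an overlap. An exact two-sided permutation test gave p = 0.1 for the pairs with Stat4, Stat5a and Stat6 and p = 0.2 for Stat5b (adjusted 0.14 and 0.233 over the 7 pairs). With 3 arrays a group, 0.1 is the smallest p this test can give, so no pair could pass 0.05.

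**Figure D2:**
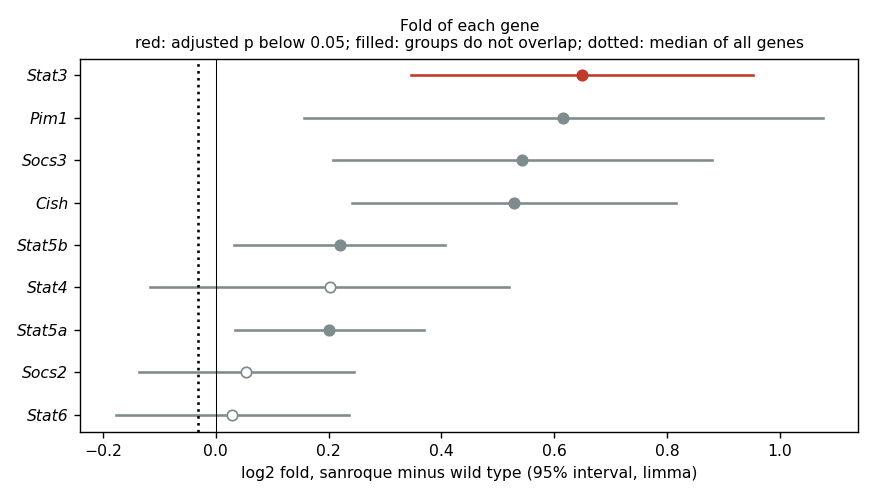
Log2 fold, sanroque minus wild type (horizontal axis), of each gene with the 95% interval of limma's fit. Stat3 (red) passed the test. Filled points mark the 6 genes whose groups did not overlap, and the dotted line is the median of all genes at -0.03.

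Among the feedback inhibitors, Cish encodes CIS, an inhibitor of interleukin 2 and T cell receptor signals that STAT5 induces. It read 7.16, 7.56 and 7.24 in sanroque, against 6.70, 6.73 and 6.95 in wild type. Every sanroque array was above the highest wild-type array, by at least 0.21. The log2 fold was 0.53 ± 0.12 (1.44-fold; 95% interval 0.24 to 0.82) at limma's Benjamini-Hochberg adjusted p = 0.0532, just above the threshold. Tested only among genes with a mean log2 of at least 5, it passed (limma, adjusted p = 0.0330), over a range of 0.00228 to 0.351 across all alternatives.

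Socs3 encodes an inhibitor of receptors that share the gp130 chain, through which STAT3 is activated. It read 8.77, 8.99 and 8.94 in sanroque, against 8.04, 8.44 and 8.59 in wild type. The sanroque arrays lay close together and above all wild-type arrays, of which array 1 was lowest. The log2 fold was 0.54 ± 0.14 (95% interval 0.21 to 0.88, limma, Benjamini-Hochberg adjusted p = 0.0783), and without wild-type array 1 it was 0.39. Among genes with a mean log2 of at least 5 it passed (limma, adjusted p = 0.0455), over a range of 0.00235 to 0.674 across all alternatives. A dimmer Socs3 probe set, annotated only with a separate GenBank record, read 7.63, 7.87 and 6.99 in sanroque, against 6.68, 6.91 and 6.92 in wild type, so sanroque array 3 was close to wild type there.

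Socs2, a regulator of growth hormone and cytokine receptors, read 5.00, 5.07 and 5.11 in sanroque, against 4.99, 4.89 and 5.13 in wild type. These values are below the median over genes of each array (5.79 to 5.97), and how much of them is background was not measured. The log2 fold was 0.05 ± 0.08 (95% interval -0.14 to 0.24, limma, Benjamini-Hochberg adjusted p = 0.849). A still dimmer Socs2 probe set read 4.94, 4.99 and 4.89 in sanroque, against 4.66, 4.48 and 4.72 in wild type, with no overlap and a log2 fold of 0.32 ± 0.08 (limma over probe sets, Benjamini-Hochberg adjusted p = 0.0733). The 2 probe sets thus gave different differences for this gene. Between genes, the log2 folds of Cish and Socs3 exceeded that of the brighter Socs2 probe set by 0.47 and 0.49 (exact permutation p = 0.1 each, adjusted 0.14). These gaps would be smaller against the dimmer Socs2 probe set, for which they were not tested. Cish and Socs3 differed by -0.02 (exact permutation p = 1).

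Pim1, the kinase gene induced by STAT3 and STAT5, read 9.97, 10.17 and 9.83 in sanroque, against 8.92, 9.54 and 9.66 in wild type. All sanroque arrays were above all wild-type arrays, but wild-type array 1 lay 0.62 below the next array. The log2 fold was 0.62 ± 0.20 (95% interval 0.16 to 1.08, limma, Benjamini-Hochberg adjusted p = 0.132), and 0.39 without wild-type array 1. Wild-type array 1 was also the lowest wild-type array for Socs3, Stat5a, Stat5b, Stat4 and Cish, and 2 of its 9 values were above the wild-type means, against 5 and 5 on wild-type arrays 2 and 3.

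**Figure D3:**
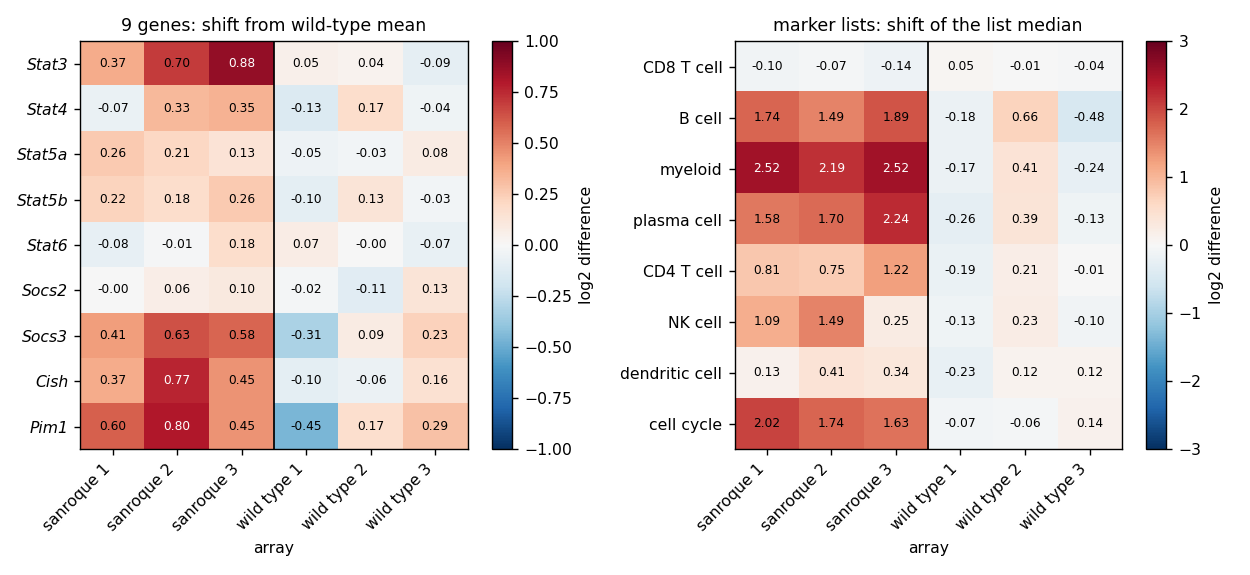
Left, difference of each gene on each array from its wild-type mean (log2, colour and printed value). Right, the same for the median of each marker list. Sanroque arrays are left of the line. Stat3 was highest on sanroque array 3 (0.88) and Pim1 on sanroque array 2 (0.80), while the B cell and myeloid lists were high on all 3 sanroque arrays.

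The promoter windows of the 4 genes with the highest log2 folds are shown because STAT dimers bind the palindrome TTCNNNGAA. The sequences are RefSeq windows of GRCm38.p6, from 250 bases before to 50 after the annotated start, 5′ to 3′ on the gene's strand, with matches in capitals. Windows were held for 8 of the 9 genes. The build behind the deposited values is not given in the sources used here, and no value was joined to these coordinates.
Cish (chr9:107296409-107296708, plus strand): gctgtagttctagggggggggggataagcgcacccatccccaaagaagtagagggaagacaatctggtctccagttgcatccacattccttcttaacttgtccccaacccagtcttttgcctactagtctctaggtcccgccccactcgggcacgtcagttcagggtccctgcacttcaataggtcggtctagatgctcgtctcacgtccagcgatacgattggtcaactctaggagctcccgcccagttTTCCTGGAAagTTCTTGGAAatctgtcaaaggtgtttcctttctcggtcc
Socs3 (chr11:117969317-117969616, minus strand): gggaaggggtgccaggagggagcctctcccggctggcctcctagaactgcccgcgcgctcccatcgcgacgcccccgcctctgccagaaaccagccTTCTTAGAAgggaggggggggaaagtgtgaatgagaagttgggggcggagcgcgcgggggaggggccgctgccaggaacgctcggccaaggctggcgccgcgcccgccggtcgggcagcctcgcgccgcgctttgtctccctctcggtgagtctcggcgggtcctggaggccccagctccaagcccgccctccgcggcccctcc
Stat3 (chr11:100939491-100939790, minus strand): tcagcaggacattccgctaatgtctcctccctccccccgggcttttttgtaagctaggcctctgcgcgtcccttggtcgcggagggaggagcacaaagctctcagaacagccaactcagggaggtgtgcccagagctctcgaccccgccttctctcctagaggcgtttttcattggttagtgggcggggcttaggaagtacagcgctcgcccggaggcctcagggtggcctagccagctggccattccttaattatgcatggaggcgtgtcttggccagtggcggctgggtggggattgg
Pim1 (chr17:29490535-29490834, plus strand): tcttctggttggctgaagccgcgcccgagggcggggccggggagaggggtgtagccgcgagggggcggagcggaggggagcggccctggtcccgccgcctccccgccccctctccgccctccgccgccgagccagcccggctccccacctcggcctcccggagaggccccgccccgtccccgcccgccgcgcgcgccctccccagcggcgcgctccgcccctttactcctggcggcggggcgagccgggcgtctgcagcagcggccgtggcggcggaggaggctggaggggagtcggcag

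The motif reads the same on both strands, so each match was counted once. The Cish window held 2 matches, TTCCTGGAA beginning at the annotated start and TTCTTGGAA 11 bases after it. The Socs3 window held TTCTTAGAA, beginning 154 bases before the start. The first windows of Stat3 and Pim1 held 0 matches, as did the windows of Stat4, Stat5a, Stat5b and Stat6 and a further Pim1 window. Of all 32851 RefSeq windows of 300 bases, 8.3% held at least 1 match and 0.457% held 2 or more. The longer spacing TTCNNNNGAA, preferred by STAT6, which can overlap the shorter motif only in part, was in 0 of the 12 windows of these genes and in 6.95% of all windows. A match describes the letters of the window and shows no binding.

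By a rule of likeness, the 3 genes whose 6 values lay nearest to those of Stat3, each gene centred on its wild-type mean, were Prkca, Gfpt1 and Gbp4. Their root-mean-square differences from Stat3 were 0.06, 0.06 and 0.07 on the log2 scale, among 7766 other genes with a mean log2 of at least 7. Prkca, which encodes a protein kinase C, read 8.10, 8.44 and 8.50 in sanroque, against 7.66, 7.71 and 7.57 in wild type. Like Stat3, these genes were lowest in sanroque on array 1, which follows from choosing them by likeness over the same arrays. Nearest to Cish were Nxpe3, Arel1 and Nbeal2, at 0.05, 0.06 and 0.07. Arel1, which encodes a ubiquitin ligase, read 9.21, 9.57 and 9.36 in sanroque, against 8.69, 8.87 and 8.94 in wild type. With 6 arrays in 2 groups such likeness depends on the genotype difference as well as on the order within groups. The part of each was not tested.

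The rest of the pathway was read from lists of 85 genes by role, of which 81 were measured. Of these, 14 were higher and 1 lower in sanroque, 66 did not pass, and the median log2 fold was 0.15, against -0.03 over all genes. The shares called over all genes were 3.26% higher and 2.51% lower. With any 1 array removed, 3 to 16 of them were higher, and the low of 3 was without wild-type array 1. The groups did not overlap in 32 of the 81, against 22.7% of all genes. The share was larger among brighter genes, at 3375 of the 9969 genes of highest level. Among genes with a mean log2 of at least 8 it was 2104 of 5583. The part of expression level in the share of the 81 was not tested.

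Upstream, 0 of the 15 cytokine ligand genes passed in limma, and 3 had an unadjusted p below 0.05, a share near the 18.9% of all genes. Ifng, the gene of interferon gamma, had the smallest p of them and read 5.46, 6.62 and 5.02 in sanroque, against 4.33, 4.42 and 4.51 in wild type (log2 fold 1.28 ± 0.36, limma, Benjamini-Hochberg adjusted p = 0.0957). Many ligand genes were near the low end of the scale. Il6, Il7 and Il10 averaged 3.58, 3.80 and 3.84 in sanroque and 3.61, 3.78 and 3.83 in wild type. At such levels a change could be missed, and how much is background was not measured. Il27 was brighter, at 6.65 in sanroque and 6.57 in wild type. Of 19 receptor genes 4 rose, 1 fell and 14 did not pass. Il10ra, the interleukin 10 receptor chain that leads to STAT3, rose to 8.63 ± 0.65 in sanroque, against 7.08 ± 0.34 in wild type (SD, n = 3 each; limma, Benjamini-Hochberg adjusted p = 0.0392). Il12rb1, a chain of the interleukin 12 receptor that leads to STAT4, rose by 1.03 ± 0.18 on the log2 scale. Its values were 8.45, 8.84 and 8.29 in sanroque and 7.39, 7.30 and 7.80 in wild type. Il2ra and Ifnar2, chains of the interleukin 2 and type I interferon receptors, were the other 2 that rose. The receptor gene that fell, Il7r, named after its value was seen, read 11.74, 11.98 and 12.34 in sanroque, against 12.61, 12.66 and 12.87 in wild type. Each of these 5 receptor calls was lost when wild-type array 1 or sanroque array 2 was left out (limma, adjusted p of 0.110 to 0.170 and 0.0593 to 0.151). Each of the 5 was also lost without at least 1 further array, and 0 to 5 receptor genes were higher whichever array was left out. Il10ra is also expressed in B and myeloid cells, whose markers were higher on the same arrays.

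Of the kinases next to the receptors 0 of the 3 measured passed in limma, and all 3 had an unadjusted p below 0.05, against 18.9% of all genes. Among genes with a mean log2 of at least 8, as these 3 had, it was 1961 of 5583. Jak1 had a log2 fold of 0.34 ± 0.09, Jak2 of 0.27 ± 0.11 and Tyk2 of 0.28 ± 0.08 (limma, Benjamini-Hochberg adjusted p = 0.0780, 0.212 and 0.119). Jak1 read 12.13, 12.24 and 12.30 in sanroque, against 11.78, 11.85 and 12.03 in wild type. Jak1 and Tyk2 did not overlap between the genotypes and Jak2 did. Stat2, the STAT of type I interferon signalling, rose by 0.79 ± 0.13 on the log2 scale (limma, Benjamini-Hochberg adjusted p = 0.0217) and did not pass without sanroque array 2 or any 1 of the wild-type arrays. It read 9.01, 9.18 and 9.55 in sanroque, against 8.41, 8.51 and 8.45 in wild type. Like Stat3, it was lowest in sanroque on array 1 and highest on array 3.

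Of the other brakes on the pathway, 0 of 5 further SOCS genes passed in limma (1 at an unadjusted p below 0.05, near the 18.9% of all genes), and their log2 folds were 0.24 for Socs1, 0.19 for Socs7, -0.04 for Socs6, -0.04 for Socs5 and -0.27 for Socs4. Of 10 PIAS proteins, phosphatases and Sh2b3, 0 passed and 2 had an unadjusted p below 0.05, again near 18.9%, with a median of 0.01. Ptprc, the gene of the phosphatase CD45, had the smallest p (log2 fold 0.25 ± 0.07, limma, Benjamini-Hochberg adjusted p = 0.0938). Pim2 and Pim3, the other PIM kinase genes, had log2 folds of 0.32 ± 0.13 and 0.12 ± 0.10, and neither passed (limma, adjusted p = 0.228 and 0.663).

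**Figure D4:**
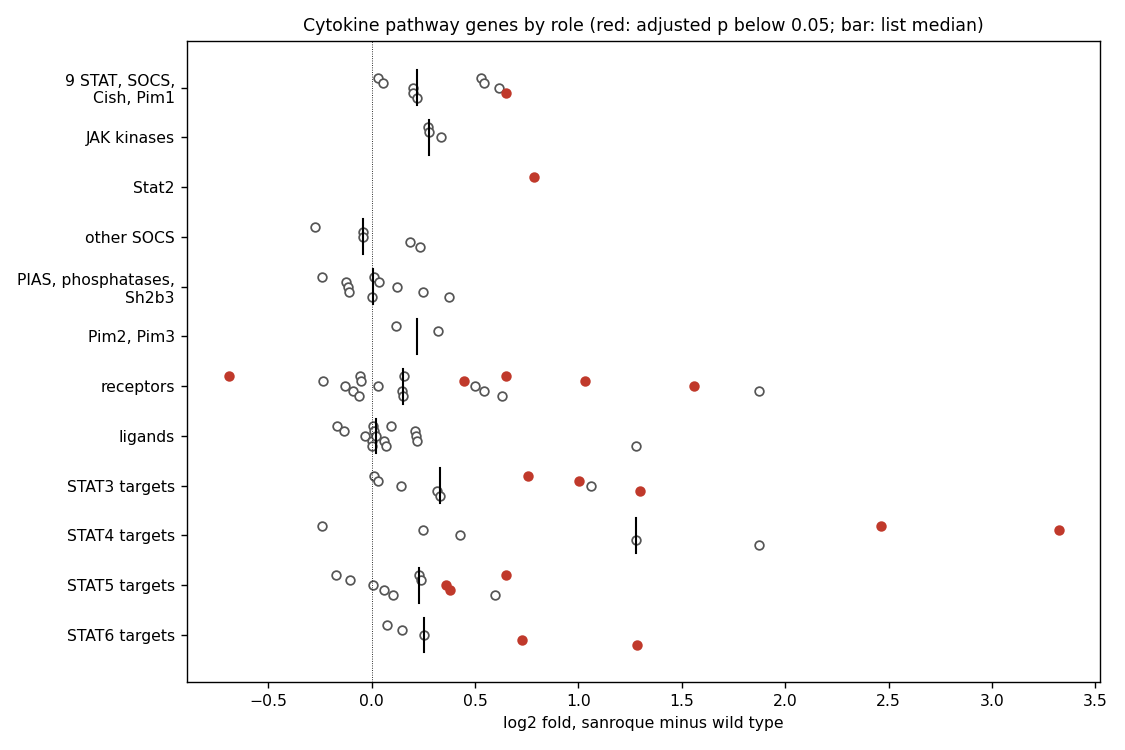
Log2 fold, sanroque minus wild type (horizontal axis), of every measured gene by role in the pathway, with a bar for each list's median. Red points passed the test. The STAT4 list reaches highest, with Il18rap at 3.32 and Tbx21 at 2.46, and the other SOCS genes lie on both sides of 0.

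Downstream, genes reported as targets of each STAT were counted without regard to how many factors share them. Of 7 STAT4 targets 2 rose, and the list's median was 1.28. Il18rap, a chain of the interleukin 18 receptor, rose by 3.32 ± 0.36 and Tbx21, the transcription factor T-bet, by 2.46 ± 0.24 on the log2 scale, and both passed whichever array was left out. The other 5 did not pass. Among them Il18r1, also an interleukin 18 receptor gene, had a log2 fold of -0.24 ± 0.24 with overlap (limma, Benjamini-Hochberg adjusted p = 0.738). Of 9 measured STAT3 targets 3 rose, with a median of 0.33. Bcl3, an atypical inhibitor of NF-kappaB, read 9.06, 8.98 and 8.85 in sanroque, against 8.13, 7.93 and 7.82 in wild type (log2 fold 1.00 ± 0.10, limma, Benjamini-Hochberg adjusted p = 0.00388), and it passed whichever array was left out. Prdm1, which encodes the repressor BLIMP-1, rose by 1.30 ± 0.27 but did not pass without sanroque array 1 or any 1 of the wild-type arrays. It is also a plasma cell gene, and that list was higher on the same arrays. Unlike Stat3, Bcl3 was highest in sanroque on array 1 and lowest on array 3, as was the sum of myeloid genes (12634, 9349 and 7904 on sanroque arrays 1 to 3). The median of the myeloid list did not have this order (8.69, 8.36 and 8.69), and the part of those cells was not tested.

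Of 11 STAT5 targets 3 rose, with a median of 0.23. Il2ra, the alpha chain of the interleukin 2 receptor, read 4.83, 4.94 and 5.32 in sanroque, against 4.34, 4.33 and 4.47 in wild type, which is low on the scale (log2 fold 0.65 ± 0.13). Bcl2, a survival gene, read 10.83, 10.83 and 10.79 in sanroque, against 10.35, 10.51 and 10.46 in wild type (log2 fold 0.38 ± 0.07). Bcl2 did not pass without any 1 array other than sanroque array 3, where limma's adjusted p ran from 0.0503 to 0.126. Of 5 STAT6 targets 2 rose, with a median of 0.25. Eomes, a transcription factor of memory CD8+ T cells, rose by 1.29 ± 0.17 and Ccr8, a chemokine receptor gene, by 0.73 ± 0.14 on the log2 scale. Eomes did not pass without wild-type array 1, and Ccr8 passed only when sanroque array 2 was left out or with all arrays. The other STAT6 targets Gata3, Il4ra and Gfi1 had log2 folds of 0.08, 0.15 and 0.25 and did not pass.

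**Figure D5:**
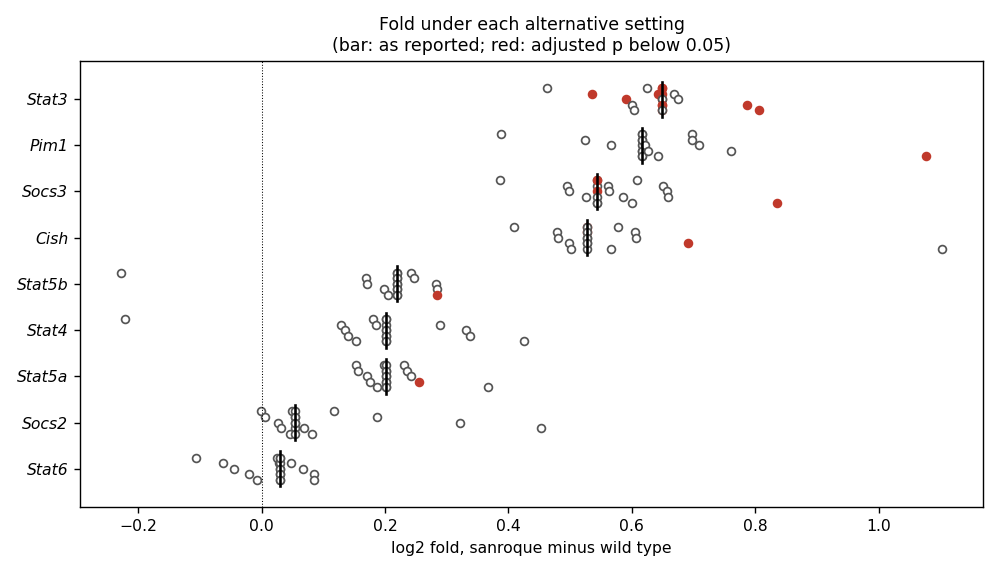
Log2 fold, sanroque minus wild type (horizontal axis), of each of the 9 genes under every alternative setting, with a bar at the value reported. Red points passed the test under that setting. Stat3 passed in 12 of 20 alternatives, Cish and Socs3 in 3 each, Stat5a, Stat5b and Pim1 in 1 each, and Stat4, Stat6 and Socs2 in 0.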

How the data were processed

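The deposited values are linear intensities, 1 for each probe set on each array, made by the authors from biotin-labelled cRNA on Affymetrix arrays per the labels' protocols. The submitters' processing notes list Partek without saying for which step. How background was corrected and probes were summarized and normalized is not given in the sources used here. Each log2 intensity was used as it stood. Of 35399 probe sets, 21789 had 1 gene symbol, 1621 several and 11989 none in the platform annotation, updated through RefSeq's GRCm38.p6 gene table (19856 of 19938 genes matched).

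Genes were tested with limma 3.58.1 (lmFit and eBayes, R 4.3.3), two-sided, on 6 arrays with no filter or covariate, adjusted by Benjamini-Hochberg over all genes. The script was tested on simulated data. Members and lists were chosen with earlier results of these data known. Genes named were the 9 members and, per pathway list, up to 2 called genes of largest absolute change or, with none called, that of smallest p, all genes in lists of up to 5, and the 3 genes nearest to each of the 2 members with the smallest p. Others were chosen after their values were seen. The labels call the samples biological replicates. Shared replicate numbers were not treated as pairs in the main fit. Deviations of same-numbered arrays from their group means correlated at -0.05, -0.16 and -0.36 across genes. With 3 arrays a group, such deviations are tied to each other and cannot exclude pairing. Figures used matplotlib 3.10.9 in Python 3.11.15.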

Additional observations from a re-analysis of the deposited data

How the results depend on the processing

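Stat3, Socs3, Cish, Pim1 and Stat5a had a positive log2 fold in each of 20 alternatives, of which 9 leave the fold of Stat3 as it is by construction, and calls depended on the setting. With all arrays 1151 genes, 1 of the 9 genes and 14 pathway genes higher and 1 lower were called, and 0 of the 9 genes were called lower in any setting. Filters at a mean log2 of 5 or 6 tested fewer genes and gave 3 of the 9 higher (Stat3, Socs3 and Cish). The median log2 fold of the 9 genes was 0.37 with the filter at 6, which removes Socs2, and 0.32 with the most variable probe set. Median centring called 631 genes, 0 of the 9, and 6 and 0 pathway genes (median 0.17). Array weights called 4733 genes, 6 of the 9, and 35 and 5 pathway genes (median 0.33). The unmoderated per-gene test called 4 genes in all, with 0 of the 9 and 0 pathway genes. A fold minimum of 1.5 left 591 genes. Robust eBayes left 0 pathway genes lower. The cause of these changes was not tested beyond what each setting removes.

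The fit with the replicate block called 301 genes, 0 of the 9 (Stat3 adjusted p = 0.113, limma) and 5 pathway genes higher. The covariate of other cell types called 0 genes, 0 of the 9 and 0 pathway genes in either direction, against 2612, 1 and 13 at limma's unadjusted p below 0.05. Its median for the 9 genes was 0.45. Stat4 was -0.22 ± 0.49, Stat5b -0.23 ± 0.23 and Stat6 -0.11 ± 0.33 in it, each smaller in size than its standard error. Without both sanroque array 1 and wild-type array 2, 353 genes, 5 pathway genes higher and 0 lower were called, and the median of the 9 genes was 0.42. Leaving out each array in turn gave 218 to 1315 genes, 0 to 1 of the 9 higher, 3 to 16 pathway genes higher and 0 to 1 lower, and medians of 0.18 to 0.34. Stat6 was also negative with median centring (-0.020), with array weights (-0.063) and without sanroque array 3 (-0.045) or wild-type array 3 (-0.0073), and ran up to 0.085 without sanroque array 1. Socs2 was -0.0013 without wild-type array 2 and 0.12 without wild-type array 3.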
